A study of Homo sapiens with 18 samples.

Results

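Ribosome footprints of the membrane fraction were compared between UFM1-KO and UFSP2-KO, HEK293 lines that lack a protein modifier and the protease that removes it. UFM1 is a small ubiquitin-like protein that is joined to other proteins, and its best known target is RPL26, which belongs to the large subunit of the ribosome. The joining takes place at the endoplasmic reticulum, on ribosomes docked at the channel through which secreted and membrane proteins are threaded. UFSP2 is the protease that takes UFM1 off again, so cells without UFM1 carry no modified RPL26 and cells without UFSP2 accumulate it. The membrane fraction of a cell lysate holds the ribosomes bound to that membrane, with anything else left after the cytosol is released. Footprints, the stretches of mRNA protected from nuclease, count the ribosomes on each transcript in the fraction.

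The members were the 4 membrane ribosome profiling libraries of the knockouts, chosen by their titles, out of 18 libraries in the series. UFM1-KO was a clonal HEK293 line made with Cas9 and a guide against UFM1, and libraries a and b came from its membrane fraction. UFSP2-KO was a clonal HEK293 line made with Cas9 and a guide against UFSP2, also with libraries a and b. Wild-type HEK293 cells (WT), a human embryonic kidney line, gave 2 further membrane libraries, and all 3 lines were grown in DMEM with serum. The series also held 6 footprint libraries of the cytosol and 6 mRNA libraries of whole cells, from the same lines in duplicate. Cells were first opened to release the cytosol, and Triton then dissolved what was left to give the membrane fraction. Because each knockout was 1 clone, the loss of a gene and any other difference between clones cannot be told apart. The labels do not state that libraries a and b came from separate cultures, so p-values measure the spread between these libraries, which may be technical.

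A feature was a set of transcripts with identical counts in all 12 footprint libraries, named by its first transcript. The transcript IDs came without gene names, so features are given by their levels and by their coding lengths, read from a column without a header, and the knocked-out genes and the marker genes of the line and of the fractions could not be looked up. Features that share most of their reads, isoforms or near-identical gene copies, remained separate. Levels are CPM, counts scaled to a common library size after TMM normalisation of library sizes, and differences are log2 values of UFM1-KO minus UFSP2-KO, so a positive one means more footprints in UFM1-KO. CPM compares 1 feature between libraries, not features with each other, and it is relative: with bulk libraries, fewer cells and fewer footprints per cell cannot be told apart.

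The membrane libraries held 5965113 (a) and 1931518 (b) counts in UFM1-KO, against 1920575 and 2814698 in UFSP2-KO, with 2630476 and 7657808 in WT, summed over distinct features. Cytosol libraries held 919295 to 4341513 counts and mRNA libraries 13567961 to 25039544. Across the 11065 features tested, log2 CPM correlated at Pearson's r = 0.973 between the UFM1-KO membrane libraries, 0.971 between those of UFSP2-KO and 0.980 between those of WT. Between the knockouts r was 0.899 to 0.912, between UFM1-KO and WT 0.955 to 0.974, and between UFSP2-KO and WT 0.934 to 0.945. The correlations are across features, which are not independent replicates. The knockouts thus lay further from each other than either lay from WT.

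The membrane footprints of the knockouts differed in 2372 of 11065 features, which was 21.4% of those tested, by edgeR's quasi-likelihood test at a Benjamini-Hochberg adjusted p under 0.05. These are the features called below. Of them, 1238 were higher in UFM1-KO and 1134 were lower, or 52.2% higher, and the median difference over all features was 0.05. Without adjustment, 3822 features (34.5%) had a p under 0.05. The number called was lower when any 1 of the 4 libraries compared was left out. It was larger with fewer groups in the model, at 3274 with only the 6 membrane libraries and 3121 with only the 4 compared. DESeq2 called 1276, 46% of them higher, so which direction held the majority turned with the method. The libraries of the knockouts did not overlap in 1236 of the features called higher and 1131 of those called lower, against 64.0% of all features tested, called or not. The SD over features of the difference between the knockout means was 0.83, against 0.46 for UFM1-KO library a minus b and 0.51 for UFSP2-KO library a minus b.

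Most differences were moderate and a few were very large. The median absolute log2 difference of called features was 1.11 and the smallest was 0.50. Over 2-fold were 838 of the higher features and 582 of the lower, and over 4-fold 233 and 111. A log2 difference past 3 was found for 93 higher and 50 lower features. The median was 1.22 for features called higher and -1.01 for those called lower.

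The share of features called grew with the level, and the size of a called difference shrank. Called were 11% of the features under 3 CPM, 13.5% between 3 and 10 CPM, 18.6% between 10 and 30 CPM, 27.4% between 30 and 100 CPM and 32.5% between 100 and 1000 CPM. Of the 171 features that averaged at least 1000 CPM, 33.9% were called, 18 higher and 40 lower in UFM1-KO, with a median absolute log2 difference of 0.81. Under 3 CPM the median was 2.93, so small differences of scarce features could not be detected at this depth. Between 3 and 10 CPM 242 features were called higher and 128 lower, while between 100 and 1000 CPM 206 were higher and 304 lower.

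**Figure D1:**
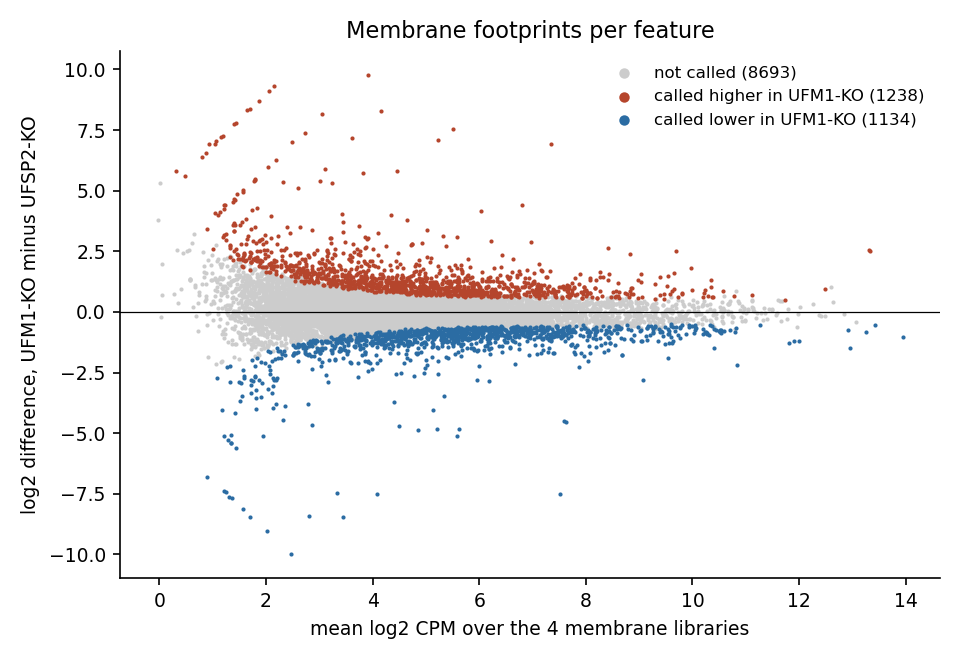
Log2 difference in membrane footprints (UFM1-KO minus UFSP2-KO, y axis) against the mean log2 CPM of the 4 libraries (x axis), 1 point per feature, coloured by whether the feature was called higher (1238), lower (1134) or not called. Called features lie on both sides of 0 at every level, and the largest differences reach log2 values near 10 in either direction.

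Among features that averaged at least 10 CPM with libraries that did not overlap, 956 were called higher and 997 lower, and the 15 with the largest difference in each direction were taken for description. The 15 highest spanned log2 differences of 5.72 to 9.78, with 21.3 to 1769 CPM on average in UFM1-KO. The 15 lowest spanned -9.98 to -4.49, with 23.3 to 2354 CPM on average in UFSP2-KO.

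ENST00000361566.6, of 380 codons, had the largest positive difference of these features. Its membrane footprints were 260 and 229 CPM (1405 and 426 counts) in the UFM1-KO libraries, against 0.568 and 0 CPM (1 count and 0 counts) in the UFSP2-KO libraries and 131 and 146 CPM in the WT libraries. UFM1-KO and WT were both well filled while UFSP2-KO was empty but for that count. The pooled ratio of UFM1-KO to UFSP2-KO was 1075, with an exact 95% interval of 193 to 42501 that covers counting error only. The fitted log2 difference was 9.78 (SE 0.48, edgeR adjusted p = 9.52e-14). An SE, here and below, is the absolute log2 difference divided by the square root of edgeR's F statistic. With counts near 0, as here, it spans less than the counting interval and is no measure of precision. The difference of 9.78 rests on the 1 UFSP2-KO count. It was 12.5 without UFSP2-KO library a and 8.64 without library b, where that of ENST00000210313.6 was larger at 9.33. In the cytosol it had 192 and 151 CPM in UFM1-KO, against 3.55 and 1.47 CPM in UFSP2-KO, while WT had 114 and 118 CPM. Its mRNA stood at 107 and 132 CPM in UFM1-KO, against 0.231 and 0.0755 CPM (5 counts and 1 count) in UFSP2-KO, while WT had 50.8 and 63.4 CPM. All 3 measurements therefore separated the knockouts without overlap, with log2 differences of 6.37 in the cytosol (SE 0.37, edgeR adjusted p = 5.73e-12) and 9.40 in mRNA (SE 0.40, edgeR adjusted p = 3.28e-10).

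ENST00000210313.6, of 484 codons, had 23.8 and 32.7 CPM (129 and 61 counts) in UFM1-KO, against 0 counts in either UFSP2-KO library and 9.81 and 9.91 CPM in WT. Its mean UFM1-KO level was 40.3-fold a floor of 3 counts over both UFSP2-KO libraries, which is 0.702 CPM (edgeR adjusted p = 2.56e-08). Such a fold, here and below, takes the level of the higher line as exact. The cytosol libraries showed the same, with 33.6 and 46.4 CPM in UFM1-KO, 0 counts in both UFSP2-KO libraries and 21.0 and 14.5 CPM in WT. Its mRNA was 34 and 32.9 CPM in UFM1-KO, against 0.0925 and 0 CPM (2 counts and 0 counts) in UFSP2-KO, while WT had 4.12 and 6.71 CPM. Here UFM1-KO lay above WT as well, at the membrane (log2 1.48, edgeR adjusted p = 0.0138).

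ENST00000371697.3, of 299 codons, had the largest negative difference of these features. No footprint of it was counted in either UFM1-KO membrane library, against 40.3 and 46.9 CPM (71 and 118 counts) in UFSP2-KO, while WT had 2.04 and 1.67 CPM. Its mean UFSP2-KO level was 106-fold a floor of 3 counts over both UFM1-KO libraries, which is 0.412 CPM (edgeR adjusted p = 1.88e-10). In the cytosol it had 0.686 and 0 CPM in UFM1-KO, against 44.4 and 53.7 CPM in UFSP2-KO, while WT had 0 and 1.84 CPM. Its mRNA was 0.904 and 1.29 CPM in UFM1-KO, against 294 and 258 CPM in UFSP2-KO, while WT had 8.25 and 1.56 CPM. At the membrane both knockouts differed from WT, UFM1-KO by a fitted log2 of -5.39 (edgeR adjusted p = 0.0336), which depends on the prior count at 0 counts, and UFSP2-KO by 4.59 (edgeR adjusted p = 5.34e-09).

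ENST00000373119.7, of 698 codons, also had 0 counts in both UFM1-KO membrane libraries. UFSP2-KO had 26.7 and 19.9 CPM (47 and 50 counts) and WT 5.72 and 6.42 CPM. The mean UFSP2-KO level was 56.5-fold the same floor (edgeR adjusted p = 3.57e-08). Cytosol footprints were 0 and 0.504 CPM in UFM1-KO, against 16.9 and 34.1 CPM in UFSP2-KO, while WT had 2 and 5.53 CPM, and mRNA was 0.157 and 0.269 CPM in UFM1-KO, against 36.9 and 35.9 CPM in UFSP2-KO, while WT had 16.9 and 17.1 CPM. WT was intermediate, and each knockout differed from it at the membrane. For UFM1-KO the fitted log2 was -7.16 (edgeR adjusted p = 0.00046), which depends on the prior count at 0 counts. For UFSP2-KO it was 1.89 (edgeR adjusted p = 0.00145).

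**Figure D2:**
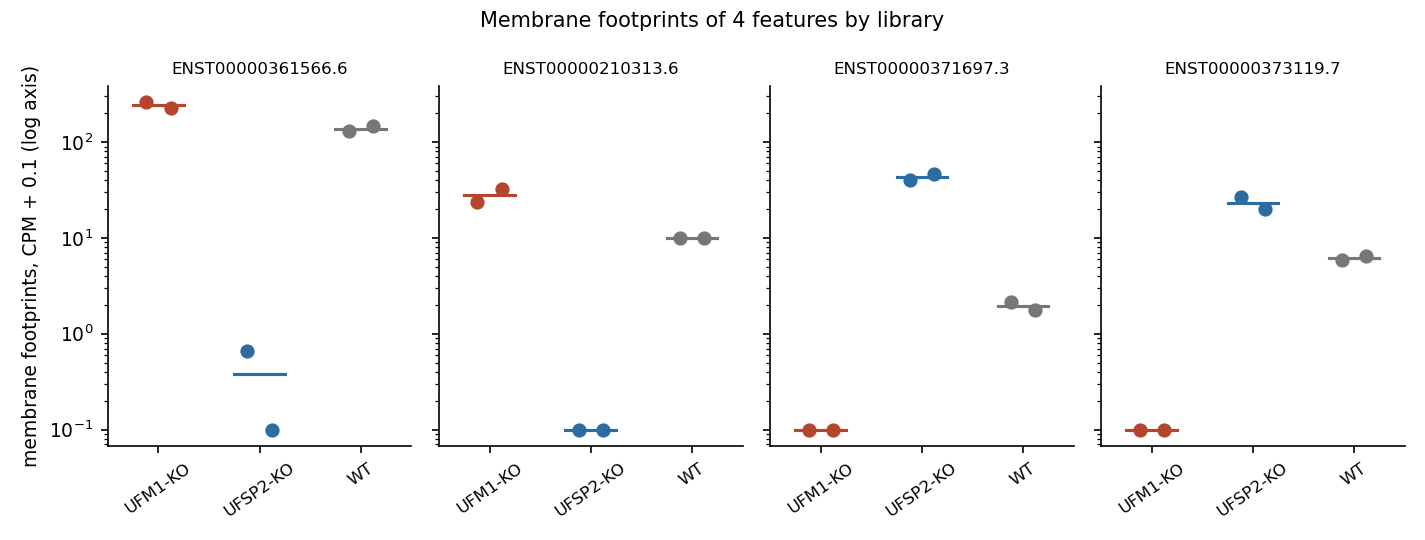
Membrane footprints of the 4 named features in each library, as CPM plus 0.1 on a log axis, with UFM1-KO left of UFSP2-KO and WT, 1 point per library. The first pair is filled in UFM1-KO (229 and 260 CPM for ENST00000361566.6) and at or near 0 in UFSP2-KO, the second pair is at 0 in UFM1-KO and filled in UFSP2-KO, and WT lies between the knockouts in all 4.

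The other features of these 15 and 15 are given by coding length. A 232-codon feature had 1870 and 1670 CPM in UFM1-KO, against 15.9 and 13.1 CPM in UFSP2-KO, while WT had 816 and 780 CPM (log2 6.94, SE 0.33, edgeR adjusted p = 9.01e-14). A 1467-codon feature had 242 and 217 CPM in UFM1-KO, against 0.568 and 0.796 CPM (1 and 2 counts) in UFSP2-KO, while WT had 64.6 and 47.5 CPM. Both were strongly enriched at the membrane over the cytosol in WT. A 203-codon feature that was not, with 711 and 546 CPM in UFM1-KO, against 6.82 and 0.796 CPM in UFSP2-KO, while WT had 345 and 343 CPM, differed in the cytosol too, at 914 and 999 CPM in UFM1-KO against 4.44 and 2.94 CPM in UFSP2-KO.

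Of those lower in UFM1-KO, a 329-codon feature had 10.9 and 16.6 CPM in UFM1-KO, against 2590 and 2120 CPM in UFSP2-KO, while WT had 96.8 and 47.6 CPM (log2 -7.50, SE 0.40, edgeR adjusted p = 1.84e-13). A 3043-codon feature had 7.02 and 9.12 CPM in UFM1-KO, against 253 and 278 CPM in UFSP2-KO, while WT had 37.2 and 36.2 CPM. UFSP2-KO was the high line in both, above WT as well as UFM1-KO. UFM1-KO also lay below WT in both, by log2 -2.43 (edgeR adjusted p = 0.00046) and -2.24 (edgeR adjusted p = 2.87e-05). A 401-codon feature was close to empty in UFM1-KO (0.185 and 0 CPM) and in WT (0 and 0.279 CPM) and had 68.7 and 55.3 CPM in UFSP2-KO. In a 796-codon feature UFSP2-KO was like WT instead. That feature had 1.11 and 1.07 CPM in UFM1-KO, against 28.4 and 29.8 CPM in UFSP2-KO, while WT had 25.7 and 30.8 CPM. There UFM1-KO was the line that differed from WT (log2 -4.65, edgeR adjusted p = 3.14e-07), and UFSP2-KO minus WT was 0.03 (edgeR adjusted p = 0.967).

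Whole-cell mRNA separated the knockouts in the same direction in all 15 of the highest features and all 15 of the lowest, each with an edgeR adjusted p under 0.05, while 15.9% of all features tested in mRNA were called. Cytosol footprints were called in the same direction in 7 of the 15 highest and 9 of the 15 lowest, while 12% of all features were called there. The mean WT membrane level lay between the knockouts in all 30, nearer to UFM1-KO in 15 of the highest and 11 of the lowest. By the rule given below, 9 of the highest and 10 of the lowest were enriched at the membrane in WT, as were 2535 of all 11065 features tested. Those among the 30 had few cytosol counts in any line.

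A wider set of features had at most 3 membrane counts in total in a knockout and a mean of at least 10 CPM in the other knockout. These were chosen by their values and are a description. As the depths differ, 3 counts are 0.702 CPM in UFSP2-KO and 0.412 CPM in UFM1-KO. The cut is thus easier to meet in UFSP2-KO, and the 20 and 8 features below are not numbers at an equal level. In 20 features UFSP2-KO was near empty, with 10.1 to 244 CPM (median 21.0) in UFM1-KO, and 5 of them had 0 counts in UFSP2-KO. In 8 features UFM1-KO was near empty, with 12.0 to 114 CPM (median 33.5) in UFSP2-KO, and 4 of them had 0 counts in UFM1-KO. The WT libraries had a mean of at least 10 CPM in 13 of the 20 and in 1 of the 8. Messenger RNA was called in the same direction in 19 of the 19 features tested in mRNA for the 20, with a median log2 difference of 7.57, and in 8 of 8 for the others, with a median of -8.04. Over all features tested in mRNA, 15.9% were called in either direction.

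The membrane difference was then set beside the same contrast in whole-cell mRNA, whose libraries share no reads with the footprints but come from the same clones. In mRNA, 2217 of 13900 features were called, which was 15.9%, 1102 higher and 1115 lower in UFM1-KO, and without UFM1-KO mRNA library a 1365 were. Of the 2372 features called at the membrane, 2314 were tested in mRNA. Their mRNA differed in the same direction in 2215 of the 2314, or 95.7%, against 73% of the 8520 features not called at the membrane. By edgeR's adjusted p, mRNA was called in the same direction in 1032 of the 2314, or 44.6%, and in the opposite direction in 0, while 8.86% of the features not called at the membrane were called in mRNA in either direction. For those not called at the membrane, mRNA was called in the same direction in 694 and in the opposite direction in 61. Of the features called at the membrane, 5 had mRNA in the opposite direction at an unadjusted p under 0.05 by edgeR.

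Among the features called at the membrane, the median difference was larger there than in mRNA on the log2 scale. For features called higher at the membrane the median was 1.22 in membrane footprints and 0.69 in mRNA (n = 1217), and for those called lower it was -1.01 in membrane footprints and -0.72 in mRNA (n = 1097). These features were selected on their membrane value, which favours a larger difference there. The gap in medians and the slope across called features are therefore a description. The slope of the mRNA difference on the membrane difference was 0.78 and Pearson's r was 0.885 across the 2314 called features, and r was 0.795 across all 10834 features tested in both. Over 2-fold at the membrane, 801 of 1383 features (57.9%) were called in mRNA, and within 2-fold 231 of 931 (24.8%) were.

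In 99 called features the mRNA had the opposite sign, and 63 of these were higher in UFM1-KO at the membrane. Their median absolute log2 difference at the membrane was 0.89 and the largest was 4.46, and in mRNA the largest was 1.57. Of the 99, 17 were enriched at the membrane in WT, as were 2535 of all 11065 features tested.

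Cytosol footprints of the same lines differed in 1331 of 11065 features, which was 12% of those tested, 645 higher and 686 lower in UFM1-KO. DESeq2 called 752. The direction of these calls depended on the settings: 48.5% were higher, against 64.9% when scaled by library size only and 29.2% without UFSP2-KO library b. The count was 871 without UFM1-KO library a, 785 without UFM1-KO library b and 677 without UFSP2-KO library b of the cytosol. Of the 2372 features called at the membrane, the cytosol differed in the same direction in 2085, or 87.9%, against 68.6% of the features not called there. It was called in the same direction in 821, or 34.6%, and in the opposite direction in 0, against 5.87% called in either direction among the features not called at the membrane. The median cytosol difference was 0.78 for the features called higher at the membrane and -0.81 for those called lower. Pearson's r between the membrane and the cytosol difference was 0.742 across called features and 0.552 across all. A total of 516 features were called alike in membrane footprints, cytosol footprints and mRNA, 274 of them higher in UFM1-KO and 242 lower.

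**Figure D3:**
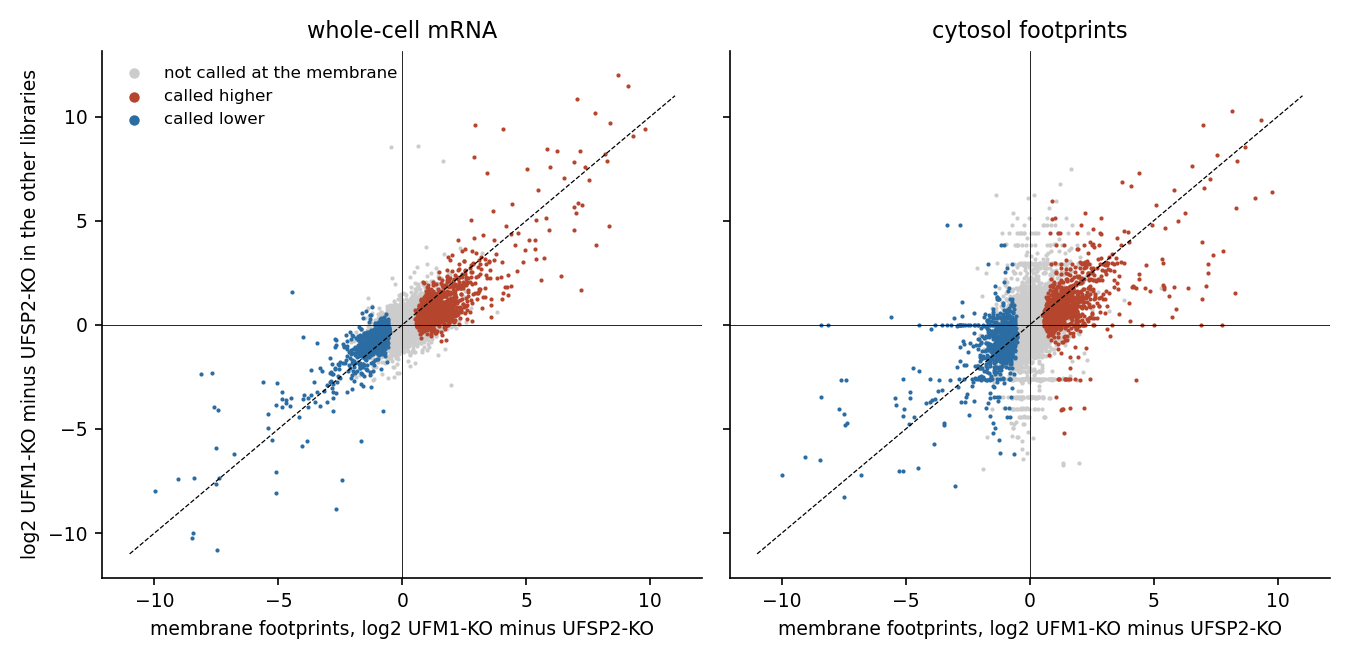
Log2 difference between UFM1-KO and UFSP2-KO in whole-cell mRNA and in cytosol footprints (y axes) against that in membrane footprints (x axes), 1 point per feature, coloured by the membrane call, with a dashed line at equality. Called features mostly have the same sign in both, with r = 0.885 for mRNA and 0.742 for the cytosol, and their medians are nearer to 0 than at the membrane, and no called feature is called the opposite way in either.

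Whether the membrane differed by another amount than the cytosol was tested as an interaction, the membrane difference minus the cytosol difference. It was called in 4 of 11065 features, or 0.0362%, with 742 at an unadjusted p under 0.05 (6.71%) by edgeR. The DESeq2 Wald test also called 4, with 375 unadjusted. Leaving out a library gave 1 call without UFM1-KO membrane library a or UFSP2-KO membrane library b, 13 without UFM1-KO cytosol library b and 0 without UFSP2-KO cytosol library a (825 at an unadjusted p under 0.05 by edgeR). The 232-codon feature described above had the largest (log2 5.72, SE 0.81, edgeR adjusted p = 0.00198), but its cytosol counts were only 14 and 10 in UFM1-KO, against 8 and 5 in UFSP2-KO. In a 603-codon feature the membrane levels were alike in range, 65.8 and 57.4 CPM in UFM1-KO against 55.1 and 55.7 CPM in UFSP2-KO. Its cytosol held 76.1 and 40.3 CPM in UFM1-KO against 304 and 194 CPM in UFSP2-KO (interaction log2 2.27, SE 0.38, edgeR adjusted p = 0.0106). A 1492-codon feature showed the reverse, with 351 and 383 CPM at the membrane in UFM1-KO against 400 and 446 CPM in UFSP2-KO, while its cytosol levels were 232 and 291 CPM in UFM1-KO against 66.5 and 94.3 CPM in UFSP2-KO (interaction log2 -1.88, SE 0.31, edgeR adjusted p = 0.0106). The last, of 182 codons, had unequal membrane libraries that overlapped, with 16.4 and 1.07 CPM in UFM1-KO against 6.82 and 1.19 CPM in UFSP2-KO. Its cytosol held 28.1 and 18.2 CPM in UFM1-KO against 146 and 107 CPM in UFSP2-KO (interaction log2 4.08, SE 0.75, edgeR adjusted p = 0.0265).

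The membrane difference minus the mRNA difference was tested in 1 model of all 18 libraries. It was called in 10 of 12629 features, or 0.0792%, 6 with a more positive difference at the membrane and 4 with a more negative one, and 940 (7.44%) had an unadjusted p under 0.05 by edgeR. DESeq2 called 17, with 836 unadjusted. Without a filter on low counts edgeR called 27. The number was 2, 3, 5, 4 and 3 without UFM1-KO membrane library a, UFSP2-KO membrane library a, UFSP2-KO membrane library b, UFM1-KO mRNA library a and UFSP2-KO mRNA library a, and 16 without UFM1-KO mRNA library b. In all 6 of these the more negative differences were the majority, with 0% to 37.5% positive against 60% over all libraries. Without UFM1-KO membrane library b, or without UFSP2-KO mRNA library b, 71.4% were positive, so the balance of directions rests on single libraries. Levels in this model are CPM over the features present in both assays.

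In 3 of the 10, footprints separated the knockouts more than mRNA did. A very long feature of 5870 codons had 116 and 123 CPM of membrane footprints in UFM1-KO against 533 and 659 CPM in UFSP2-KO, while its mRNA was 44.4 and 42.4 CPM in UFM1-KO and 54.3 and 69.2 CPM in UFSP2-KO (interaction log2 -1.82, SE 0.35, edgeR adjusted p = 0.0272). A 98-codon feature had footprints of 73.6 and 87.9 CPM in UFM1-KO against 17.7 and 25.9 CPM in UFSP2-KO, and its mRNA overlapped, at 39.5 and 45.7 CPM in UFM1-KO and 45.8 and 33.2 CPM in UFSP2-KO (interaction log2 1.75, SE 0.35, edgeR adjusted p = 0.0417). A 434-codon feature had footprints of 41.4 and 47.3 CPM in UFM1-KO against 1.97 and 3.18 CPM in UFSP2-KO, with mRNA of 19.6 and 16.5 CPM in UFM1-KO and 6.36 and 6.46 CPM in UFSP2-KO (interaction log2 2.55, SE 0.48, edgeR adjusted p = 0.0164). WT footprints of the 3 features were 147 and 136 CPM, 52.6 and 58.5 CPM, and 24.7 and 26.3 CPM, in each case nearer to UFM1-KO.

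In the other 7, mRNA separated the knockouts more than footprints did. A 109-codon feature had footprints of 59.1 and 62.4 CPM in UFM1-KO against 88.1 and 84.0 CPM in UFSP2-KO, but mRNA of 15 and 19.4 CPM in UFM1-KO against 0.0695 and 0 CPM in UFSP2-KO (fitted interaction log2 -8.82, SE 0.57, edgeR adjusted p = 4.14e-11). In UFSP2-KO these were 134 and 185 footprint counts beside 2 and 0 mRNA counts. Whether footprints of near-identical transcripts were assigned to such features was not tested. A 116-codon feature had footprints of 418 and 340 CPM in UFM1-KO against 61.1 and 46.3 CPM in UFSP2-KO, and mRNA of 160 and 194 CPM in UFM1-KO against 0.869 and 0.39 CPM in UFSP2-KO (interaction log2 -5.19, SE 0.40, edgeR adjusted p = 1.65e-09). A 412-codon feature had footprints of 9.64 and 3.64 CPM in UFM1-KO against 44.0 and 41.3 CPM in UFSP2-KO, and mRNA of 0.685 and 0.876 CPM in UFM1-KO against 162 and 110 CPM in UFSP2-KO (interaction log2 4.96, SE 0.55, edgeR adjusted p = 4.35e-06). The remaining 4, of 106, 545, 453 and 452 codons, had log2 values of -1.57, 2.27, 6.59 and 7.62. The last pair had 0 mRNA counts in UFM1-KO library a and in both WT libraries. Even so, the WT membrane libraries had 6 and 15 footprint counts of the 453-codon feature and 2 and 7 of the 452-codon feature.

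The WT membrane libraries, which do not enter the contrast, placed the difference between the knockouts. On the log2 CPM scale the WT mean was nearer to UFM1-KO than to UFSP2-KO in 1816 of the 2372 called features, or 76.6%, and nearer to UFSP2-KO in 556. With WT library a alone the number was 1716, and with library b alone 1808. WT lay between the knockouts in 2021 features, above both in 183 and below both in 168. Put on a scale from 0 at UFSP2-KO to 1 at UFM1-KO, the median position of WT was 0.74 for features called higher in UFM1-KO and 0.66 for those called lower. WT was nearer to UFM1-KO in 1031 of the higher features (83.3%) and in 785 of the lower (69.2%), and among those over 4-fold different in 271 (78.8%) against 73 nearer to UFSP2-KO. No test was made of these counts, and the features of a line are not independent of each other. The position of WT was not computed for the features not called, so these shares have no background beside them.

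**Figure D4:**
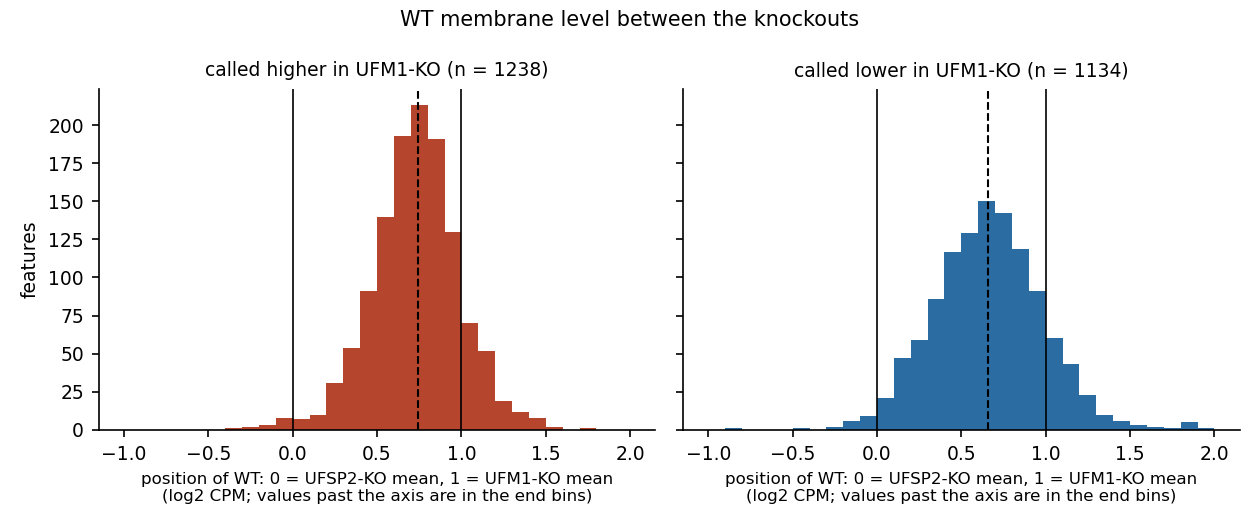
Position of the WT membrane mean on a scale on which 0 is the UFSP2-KO mean and 1 the UFM1-KO mean of log2 CPM (x axis), as numbers of called features (y axis), for features higher and lower in UFM1-KO; solid lines mark 0 and 1 and the dashed line the median. Both distributions peak on the UFM1-KO side, with medians of 0.74 and 0.66.

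The comparisons of each knockout with WT share the WT libraries, and each shares a knockout's libraries with the contrast above, so their values are given side by side. For features called higher in UFM1-KO the median log2 difference was 0.35 for UFM1-KO minus WT and -0.90 for UFSP2-KO minus WT. For features called lower it was -0.35 for UFM1-KO minus WT and 0.70 for UFSP2-KO minus WT. By edgeR's adjusted p, 118 of the 2372 were called in UFM1-KO against WT, 51 higher and 67 lower, and 1028 were called in UFSP2-KO against WT, 569 lower and 459 higher. In 1273 of the 2372 neither knockout was called against WT, and in 47 both were, in opposite directions. The difference of those 1273 is thus not placed in either line by these calls. Over all 11065 features, 1.26% were called in UFM1-KO against WT and 11.1% in UFSP2-KO against WT.

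Transcripts enriched at the membrane were examined as a class, defined in WT libraries only. The rule was a footprint CPM more than 2-fold higher at the membrane than in the cytosol, with an edgeR adjusted p under 0.05. As CPM is relative within each fraction, this does not say where most ribosomes of a transcript are. Transcripts of secreted and membrane proteins are translated at the endoplasmic reticulum, though no gene name was at hand to check that they make up the class. It held 2535 features, with a median WT enrichment of 43.8-fold and a median coding length of 475 codons, against 448 codons for the other 8530 features. Within the class, 263 features (10.4%) were called higher in UFM1-KO and 445 (17.6%) lower, so 27.9% were called. Of the other features, 975 (11.4%) were called higher and 689 (8.08%) lower, or 19.5% in all. The calls of the class thus leaned to UFSP2-KO and those of the other features to UFM1-KO. Most calls lay outside the class, and whether their footprints came from ribosomes bound to the membrane was not tested. The difference of these shares was not tested.

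The shift in level behind this lean was small. The median log2 difference was -0.11 in the class and 0.08 in the other features. It moved with the scaling, to -0.16 and 0.03 with RLE size factors, -0.06 and 0.13 with library size only, and -0.16 and 0.03 with DESeq2, and the class lay lower in each. In mRNA the medians were -0.02 in the class and -0.01 in the others, and 20.7% of the class and 15.2% of the others were called, 246 higher and 266 lower in the class. In cytosol footprints the medians were 0 in the class and 0.02 in the others. The membrane difference less the mRNA difference had a median of -0.08 in the class (n = 2491) and 0.08 in the others (n = 8396).

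As a share of all membrane counts, summed over features, the class held 28.4% (exact 95% interval 28.3 to 28.4, counting error only) and 29.0% (28.9 to 29.0) in the UFM1-KO libraries. It held 29.8% (29.7 to 29.8) and 30.9% (30.9 to 31) in the UFSP2-KO libraries, and 26.8% and 26.1% in the WT libraries. Features that share reads each count them, so these intervals may be narrower than the counting error. Both UFM1-KO libraries lay below both UFSP2-KO libraries, and all 4 lay above WT. The means were 28.7% ± 0.43 in UFM1-KO and 30.3% ± 0.82 in UFSP2-KO (SD, n = 2 each), a difference of -1.68 percentage points. The two-sided exact permutation p was 0.333, the smallest that 2 libraries against 2 can give, so this test could not reach 0.05. In the cytosol the class held 2.30% and 1.95% in UFM1-KO, against 2.11% and 1.71% in UFSP2-KO, while WT had 1.88% and 1.41%. In mRNA it held 14.1% and 13.5% in UFM1-KO, against 13.2% and 13.8% in UFSP2-KO, while WT had 13.2% and 14.3%. There the knockouts overlapped.

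The membrane difference also varied with coding length, as read from the unlabelled length column of the tables. The column held values below 0 for 110 entries, which a coding length cannot have, and the shortest tested feature stood at 4, so bins give an order of length rather than exact codons. In 5 bins of nearly equal numbers of features, from 4 to 232, 233 to 379, 380 to 542, 543 to 839 and 840 to 8903 codons, the median log2 difference was 0.27, 0.08, 0.00, -0.02 and -0.10. Among the shortest bin 412 features (18.6%) were called higher in UFM1-KO and 134 (6.04%) lower, and among the longest 157 (7.1%) were called higher and 299 (13.5%) lower. Most features of either bin were not called, and the counts of the bins were not tested against each other. In the cytosol the medians of the shortest and the longest bin were -0.02 and 0.06, and in mRNA -0.05 and 0.11. The shortest bin had medians of 0.06 within the membrane class and 0.33 outside it, and the longest -0.16 and -0.10. Against WT, the shortest and longest bins had medians of 0.12 and 0.02 for UFM1-KO and -0.17 and 0.13 for UFSP2-KO.

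The length pattern was present in every pair of knockout membrane libraries but differed between replicates too. The 4 pairs of a UFM1-KO and a UFSP2-KO membrane library gave medians of 0.20 to 0.31 in the shortest bin and -0.15 to -0.06 in the longest. UFM1-KO library a minus library b gave 0.12 and -0.06, and UFSP2-KO library a minus library b gave 0.01 and -0.06. For each library, the median deviation of the shortest bin less that of the longest was 0.24 and 0.06 in UFM1-KO, against -0.17 and -0.23 in UFSP2-KO, while WT had 0.03 and 0.10, at the membrane. The knockouts differed there by 0.35, without overlap (two-sided exact permutation p = 0.333, the smallest possible). The same measure ran over -0.07 and -0.06 in UFM1-KO, against -0.07 and 0.05 in UFSP2-KO, while WT had -0.03 and 0.26, in the cytosol (difference -0.06, exact permutation p = 0.667). In mRNA it was -0.15 and 0.08 in UFM1-KO, against 0.25 and 0.07 in UFSP2-KO, while WT had 0.07 and -0.29 (difference -0.19, exact permutation p = 0.667), and the WT mRNA libraries differed from each other by as much as the knockouts did at the membrane. The part that such differences between libraries play in the membrane pattern was not tested. With each library's trend over length removed, 2342 features were called, and 2070 of the 2372 kept their call.

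**Figure D5:**
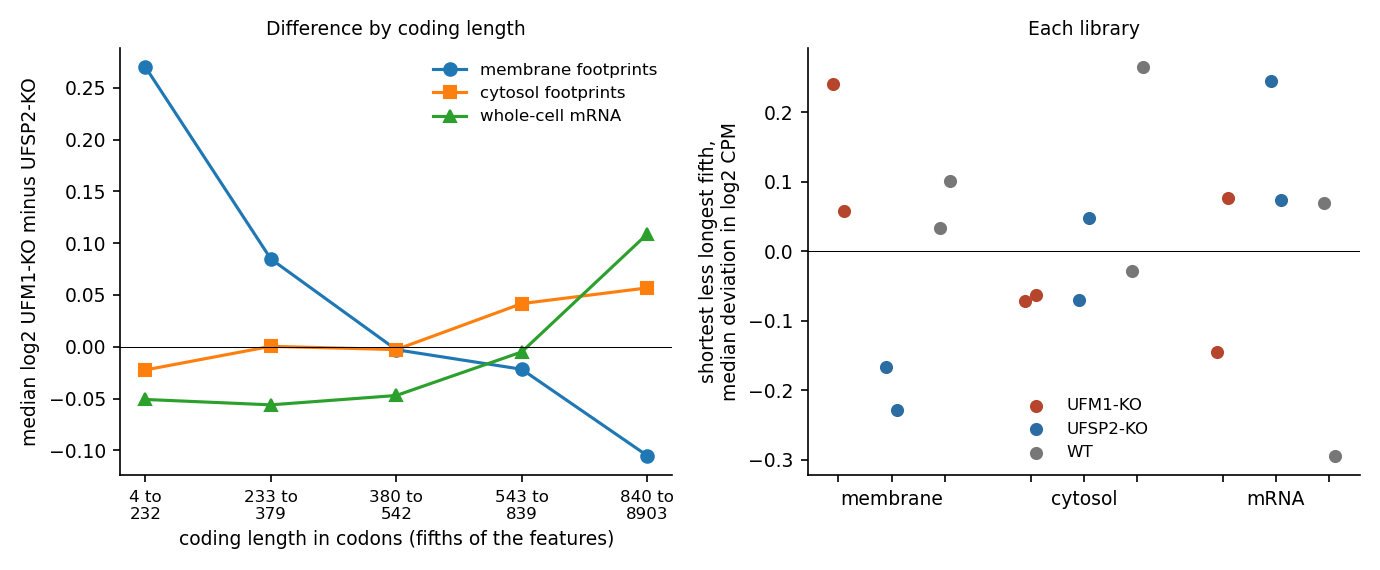
Left, median log2 difference between UFM1-KO and UFSP2-KO (y axis) by bins of coding length in codons (x axis) for membrane footprints, cytosol footprints and whole-cell mRNA. Right, for each library, the median deviation in log2 CPM of the shortest bin less that of the longest, with UFM1-KO left of UFSP2-KO and WT in each assay; the membrane medians fall from 0.27 to -0.10 with length, and the membrane libraries of UFM1-KO (0.24 and 0.06) lie above those of UFSP2-KO (-0.17 and -0.23).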

How the data were processed

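Per the labels, footprints were made with RNase I from fractions of cultured cells, and mRNA libraries from whole-cell RNA. The authors deposited raw counts per Ensembl transcript, not normalised, with a column without a header that was read as a length in codons; 110 footprint entries were below 0 there, none among the features tested. The submitters' processing notes name TopHat2 2.1.1 and GRCh38; the program that counted reads and its annotation were not given in the sources used here. Footprint tables had 26679 entries and mRNA tables had 98334, of which 43611 had no length. The 21223 footprint entries above 0 in some library were merged, where counts were identical in all 12 footprint libraries, into 14377 features. For mRNA, 25629 transcripts were matched by ID without version and by length, giving 15444 features.

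Counts were tested in R 4.3.3 with edgeR 4.0.16 (quasi-likelihood, TMM, filterByExpr with a minimum count of 10, two-sided, Benjamini-Hochberg adjusted p under 0.05) with 1 coefficient per group, over the 12 footprint, the 6 mRNA or all 18 libraries. This kept 11065, 13900 and 12629 features. DESeq2 1.42.0, other scalings, filters and fits, and each library left out served as alternatives. Scripts were tested on simulated data. Log2 CPM used a prior count of 2. SE values were calculated back from the log2 difference and edgeR's F statistic. Described features were the 15 with the largest difference in each direction among called features of at least 10 CPM without overlap; other features are given by coding length, those with a called interaction among them, and some were picked after their values were seen. The unit planned was the gene; without gene names it was the feature, and the gene lists were not tested. The comparison, its features and lists were chosen with earlier results of these data known. Library totals, 919295 to 25039544 counts, limit the precision of low features; intervals and the 3-count floor cover counting error only.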

Additional observations from a re-analysis of the deposited data

Results flagged for a closer look

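The difference between UFM1-KO and UFSP2-KO was not the same in the membrane fraction as in the cytosol for 4 features by the interaction term of edgeR at an adjusted p under 0.05. The membrane difference less the cytosol difference was 5.72 for the 232-codon feature, 4.08 for the 182-codon feature and 2.27 for the 603-codon feature on the log2 scale, and -1.88 for the 1492-codon feature. The mRNA of the 603-codon feature was 33.4 and 42.6 CPM in UFM1-KO, against 36.9 and 30.2 CPM in UFSP2-KO, and that of the 1492-codon feature 403 and 330 CPM in UFM1-KO, against 250 and 277 CPM in UFSP2-KO. The mRNA of the 182-codon feature was 2.87 and 3.34 CPM in UFM1-KO, against 3.98 and 3.32 CPM in UFSP2-KO, and its membrane counts were 89 and 2 in UFM1-KO, against 12 and 3 in UFSP2-KO. The mRNA of the 232-codon feature was 291 and 428 CPM in UFM1-KO, against 6.80 and 7.70 CPM in UFSP2-KO.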

How the results depend on the processing

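No call of the membrane comparison changed sign under 13 alternatives, and signs were not counted under the 2 chosen after seeing the data; the 4 named features kept direction and call under the same 13. The number of membrane calls, 2372, was 1276 with DESeq2 (46% higher in UFM1-KO against 52.2%), and 1275 of these were among the 2372; it was 2485 with RLE size factors (45.8% higher), 2436 with library size only (57.4% higher), 3274 with the 6 membrane libraries in the model, 3121 with the 4 compared and 3420 with every transcript as a row. Leaving out 1 library gave 1098 (without UFM1-KO a), 1573 (without UFM1-KO b), 1376 (without UFSP2-KO a) and 1183 (without UFSP2-KO b), and 1049 to 1470 of the 2372 calls held; the lone library left was assumed to vary like the other groups. Cytosol calls, 1331, were 752 with DESeq2, 64.9% higher with library size only against 48.5%, and 677 to 1011 with 1 library left out: 871 and 785 without UFM1-KO a and b, and 1011 and 677 without UFSP2-KO a and b. The mRNA calls, 2217, were 1365 to 1958 with 1 library left out, 2623 with DESeq2, 2383 without a filter, 2247 with RLE size factors and 2116 with library size only. The 4 calls of membrane less cytosol were 0 to 13: 1 without UFM1-KO membrane a or UFSP2-KO membrane b, 13 without UFM1-KO cytosol b and 0 without UFSP2-KO cytosol a, where edgeR had 825 at an unadjusted p under 0.05. The 10 calls of membrane less mRNA were 17 with DESeq2, 27 without a filter, and 2 to 16 with 1 library left out: for libraries a and b, 2 and 7 without UFM1-KO membrane, 3 and 5 without UFSP2-KO membrane, 4 and 16 without UFM1-KO mRNA, and 3 and 14 without UFSP2-KO mRNA. The class share difference of -1.68 points was -2.26 to -1.10 with 1 library left out. With the letter as a replicate block, edgeR called 3428 membrane, 2113 cytosol and 1906 mRNA features, 44 for membrane less cytosol and 12 for membrane less mRNA; deviations of same-letter membrane libraries correlated at 0.152 to 0.168, but the labels do not say that letters mark a batch. These alternatives were added after seeing the data: near-identical features joined (2344 groups called of 10940) and features of at least 10 CPM alone (2071 called). Counts per gene and gene lists were not run, for want of gene names. The cause of these changes was not tested.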
